A study of Mus musculus with 8 samples.

Results

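The box C/D small nucleolar RNAs (snoRNAs) of 2-cell mouse embryos are described here from the 44 Snord genes that an Affymetrix whole-transcript array named singly, of 30700 genes measured in all. Members were all transcript clusters annotated to 1 gene whose symbol is Snord followed by a number, with the cluster of highest mean over the 8 arrays taken where a gene had several. The rule used the gene name and, for genes on several clusters, the mean over all arrays, and no difference between groups. Of the 44, 19 had a mean log2 level of 8 or more and are also described apart, as the abundant members.

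Box C/D snoRNAs are short nuclear RNAs that carry the proteins fibrillarin, NOP56, NOP58 and SNU13, and most of them pair with ribosomal RNA to guide methylation of the ribose at a chosen base. A few, including Snord118 (U8), Snord13 (U13), the Snord14 group (U14) and the U3 RNA, act in cleavage or other modification of the ribosomal precursor. Most vertebrate box C/D snoRNAs are cut out of introns of host genes, many of which encode ribosomal or nucleolar proteins, while U3, U8 and U13 are made from promoters of their own. Ribosomal RNA synthesis starts at low level in the mouse around the 2-cell stage, when the embryo first transcribes its own genome at scale.

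Each array held RNA of a pool of 100 embryos from B6C3F1 x CD1 matings, collected as zygotes from hormone-stimulated females, and there were 2 pools in each of 4 groups. One group was non-manipulated and stayed in the incubator. The second was injected into the ooplasm at the mid-pronuclear stage with Trim21 mRNA, the third with Trim21 mRNA and an anti-COPS3 antibody together (called the full treatment below), and the last with the anti-COPS3 antibody alone. The ubiquitin ligase TRIM21 recognises antibodies and routes them and their bound target to the proteasome. Its target here, COPS3, belongs to the COP9 signalosome, the complex that strips NEDD8 off cullins. Because protein is what this approach depletes, no RNA level shows whether COPS3 was removed. RNA was taken after 28 h of culture per the protocol, at Theiler stage 2 and 1 day post coitum, with an age label of 24 h in vitro. Per the labels, 2-cell formation was normal without antibody, and in both antibody groups it was stunted with many zygotes undivided. No group with a control antibody is analysed here. Treatment days differed between the groups and were shared by the pools of a group, so day and group cannot be told apart, and every p below measures only the spread between pools of a single day. Fewer cells and less RNA per cell cannot be told apart in such pools. An array of this kind reads a mature snoRNA and the same sequence inside an unspliced host transcript alike.

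Trim21, which checks the labels, read 9.77 to 10.40 on the 4 arrays of embryos given its mRNA and 5.65 to 6.76 on the other 4. The mean log2 level of 10 measured 2-cell markers of 12 listed was 10.88 to 12.31 over the 8 pools, and that of 14 maternal oocyte genes was 11.70 to 12.84. The mean of the 2-cell markers was 12.27 to 12.31 in the full-treatment pools and 10.88 to 11.14 in the Trim21 mRNA pools. Of the 10, 7 were called higher and 1 lower in this comparison, with a median difference of 1.73. With each array centred on its median the counts were 4 and 1. The log2 of their summed level was 16.15 to 16.37 and 16.02 to 16.18 in these groups. For antibody alone against non-manipulated embryos 2 were called higher and 1 lower (0 and 1 with that centring). Marker lists of blood, sperm, oviduct epithelium and the follicle cells around the oocyte averaged 4.63 to 7.34 in every pool, the highest being the oviduct list. The log2 of the summed level of the 14 maternal genes was 18.75 to 18.76 in the non-manipulated pools, 18.01 to 18.20 in the Trim21 mRNA pools, 18.64 to 19.17 in the full-treatment pools and 19.75 to 19.90 with antibody alone, with 4 of the 14 called higher and 0 lower for antibody alone against non-manipulated embryos. In the full treatment against Trim21 mRNA 6 of the 14 were called higher and 1 lower (2 and 2 with each array centred on its median). The part of either list in the snoRNA differences was not tested. On 3 arrays, both of the full treatment and the first of antibody alone, 136 to 169 transcript clusters shared the array's highest value, 18.88 to 19.20, and no snoRNA member lay at that ceiling. The 2 antibody-alone pools stood apart from each other, differing by more than 2-fold at 15.0% of all genes. Medians of the abundant members that moved when the first was left out are given both ways.

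Levels of the snoRNAs spanned most of the range of the array. Mean log2 level over the 8 pools ran from 3.82 (Snord88c) to 15.09 (Snord42a), and 43.2% of the members had a mean of 8 or more against 21.9% of all genes. In contrast, 9 members never exceeded 6 in any pool. Levels of different snoRNAs also reflect how well each probe set binds, so the order of the members is a description of signals. Just inside the level of 8 lay Snord82 at 8.15 and Snord16a at 8.10, and just outside lay Snord87 at 7.94 and Snord98 at 7.45. The mean includes the full-treatment pools, and 3 of the 19 (Snord71, Snord14a and Snord82) reached 8 only through them, with means of 7.32, 7.36 and 7.33 over the other 6 pools. Counts and medians over the abundant members in comparisons with the full treatment therefore follow in part from the choice of members, and are given as descriptions beside those of the other 16. Of the imprinted families only Snord64, inside Snhg14, was measured singly, at 4.45 to 5.24 in all pools. The U3 gene Snord3a and the genes Snord14c, Snord14d and Snord22 are not analysed here, and 29 Snord symbols found only on clusters shared with other genes were likewise left out.

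**Figure D1:**
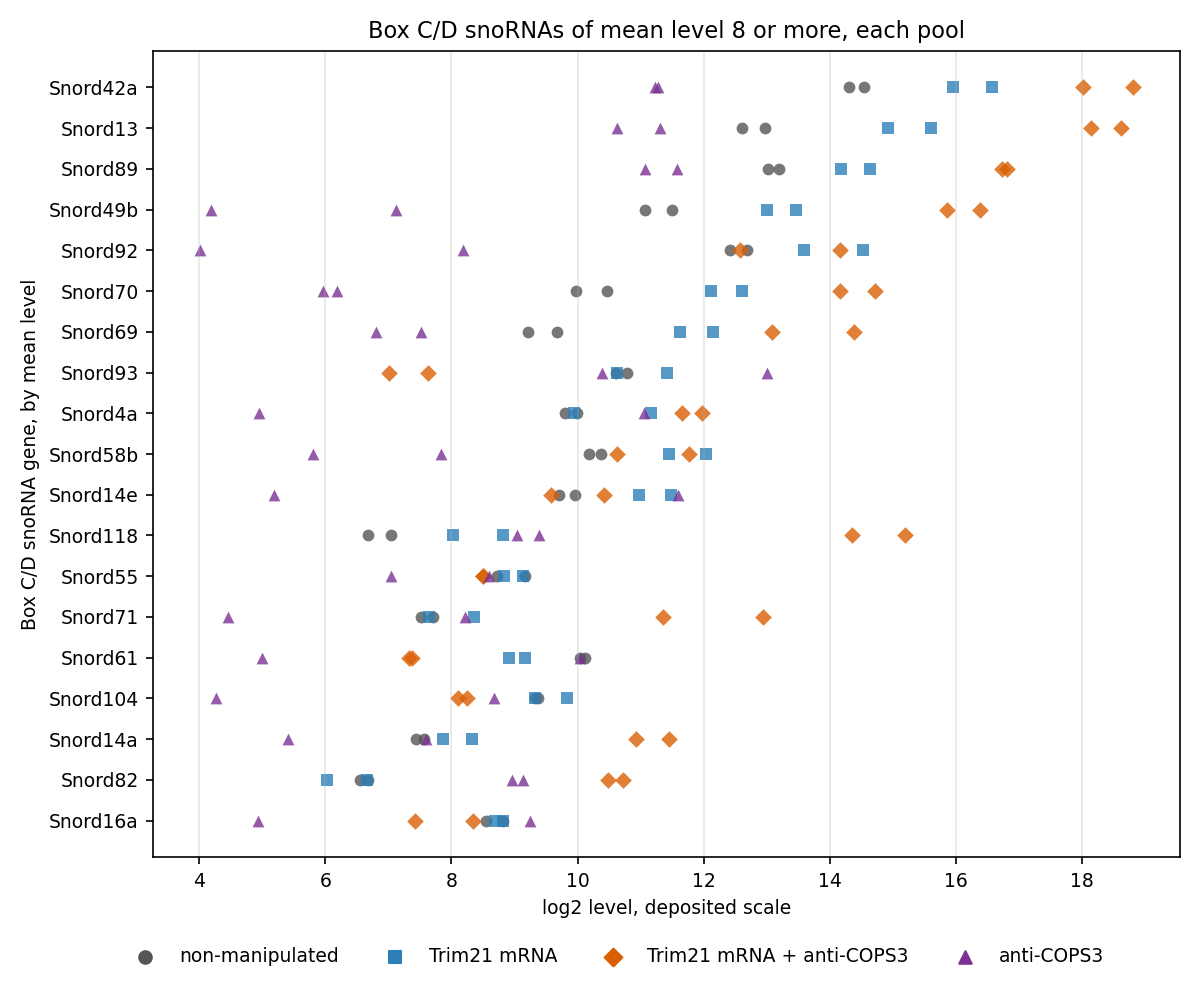
Log2 level (x axis, deposited scale) of the 19 box C/D snoRNAs of mean level 8 or more (y axis, by mean), with 1 point per pool and a marker per group. The full-treatment pools of Snord42a, Snord13 and Snord89 lie at 16.73 to 18.81, the antibody-alone pools of the same snoRNAs at 10.62 to 11.57, and the antibody-alone pools of Snord4a lie apart at 4.94 and 11.05.

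The main pattern was an ordered set of snoRNAs that were highest in the full treatment and lowest with antibody alone. In 7 of the 44 members (6 of the 19 of mean level 8 or more) the pools of the 4 groups did not overlap and ran from the full treatment through Trim21 mRNA and non-manipulated embryos down to antibody alone. Among all genes 0.485% showed that order. The 7 were Snord42a, Snord13, Snord89, Snord49b, Snord70, Snord69 and Snord123. This order is a count of pools and not a test, since the groups differ in day as well as in treatment. It also fixes the direction of each difference between groups for these 7, so those directions are not further evidence. Taken apart, both full-treatment pools lay above the other 6 in 17 members (17.6% of all genes), and both antibody-alone pools lay below the other 6 in 11 members (4.13% of all genes). The reverse, both full-treatment pools below the other 6, held for 3 members (14.2% of all genes). Some difference among the 4 groups was called for 21 members by limma's F test, against 26.4% of all genes, both with all arrays. The count changed with the arrays in the fit, as described at the end.

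Snord42a, a guide for methylation of small-subunit ribosomal RNA that lies inside the ribosomal protein gene Rpl23a, had log2 levels of 14.55 and 14.30 in the non-manipulated pools, 15.95 and 16.57 in the Trim21 mRNA pools, 18.01 and 18.81 in the full-treatment pools, and 11.27 and 11.22 in the antibody-alone pools. Each pair of pools was well separated from the next. Full treatment exceeded Trim21 mRNA by 2.15 ± 0.31 (standard error of the limma fit, n = 2 pools per group here and throughout, adjusted p = 0.0032), and antibody alone lay below non-manipulated embryos by a difference of -3.18 ± 0.31 (adjusted p = 0.0037).

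Snord13, the independently transcribed U13 RNA that guides acetylation of small-subunit ribosomal RNA, stood at 12.98 and 12.60 in the non-manipulated pools, 14.92 and 15.60 in the Trim21 mRNA pools, 18.15 and 18.62 in the full-treatment pools, and 10.62 and 11.30 in the antibody-alone pools. It showed the same non-overlapping order as Snord42a, and its second transcript cluster ran alike, from 10.16 and 11.18 in the antibody-alone pools to 17.95 and 18.50 in the full treatment. The full treatment was 8.72-fold above Trim21 mRNA, a log2 difference of 3.12 ± 0.34 (adjusted p = 0.00084). With antibody alone it fell by 1.83 ± 0.34 on the log2 scale (adjusted p = 0.021), a call that quantile normalization took to an adjusted p of 0.051.

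Snord89, which lies in no listed gene of the mouse annotation, had levels of 13.19 and 13.02 in the non-manipulated pools, 14.17 and 14.63 in the Trim21 mRNA pools, 16.73 and 16.81 in the full-treatment pools, and 11.57 and 11.07 in the antibody-alone pools. Again no pools of different groups overlapped. The differences were 2.37 ± 0.23 for the full treatment against Trim21 mRNA (adjusted p = 0.00058) and -1.78 ± 0.23 for antibody alone against non-manipulated embryos (adjusted p = 0.0075).

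Snord70, a small-subunit methylation guide, and Snord69, a large-subunit guide, followed Snord42a most closely among the members. Over the 8 arrays Pearson's r with Snord42a was 0.9965 for Snord70, 0.9893 for Snord69 and 0.9814 for Snord89, as a description over 4 groups of 2 pools that share their day and treatment. Snord70 measured 10.47 and 9.97 in the non-manipulated pools, 12.12 and 12.61 in the Trim21 mRNA pools, 14.16 and 14.71 in the full-treatment pools, and 5.97 and 6.18 in the antibody-alone pools. Snord69 measured 9.68 and 9.21, 11.63 and 12.15, 13.09 and 14.39, and 7.51 and 6.80 in the same order of groups. Both therefore ran from high in the full treatment to low with antibody alone without overlap. Snord70 rose by 2.07 ± 0.28 in the full treatment over Trim21 mRNA (adjusted p = 0.0024) and fell by 4.14 ± 0.28 with antibody alone (adjusted p = 0.0018). For Snord69 the rise was 1.85 ± 0.46 (adjusted p = 0.03) and the antibody-alone difference -2.29 ± 0.46 (adjusted p = 0.027), and the latter did not pass after quantile normalization (adjusted p = 0.073) or cyclic loess (adjusted p = 0.07).

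Snord49b, a large-subunit guide inside 2410006H16Rik, stood at 11.49 and 11.07 in the non-manipulated pools, 13.00 and 13.46 in the Trim21 mRNA pools, 15.86 and 16.38 in the full-treatment pools, and 4.18 and 7.12 in the antibody-alone pools. The antibody-alone pools differed from each other by several-fold, yet both lay far below every other pool. The value of 4.18 lay below that array's median over all transcript clusters, 5.24, so the size of the fall in the first antibody-alone pool is not resolved. The antibody-alone difference was -5.63 ± 0.84 (adjusted p = 0.011), and -4.16 ± 0.31 without that pool (adjusted p = 0.0015). The rise in the full treatment over Trim21 mRNA, 2.89 ± 0.84, passed narrowly (adjusted p = 0.048) and did not pass when each array was centred on its median (adjusted p = 0.12). Its neighbour in the same host, Snord49a, was low in all pools, at 4.93 to 6.43, and was called higher in the full treatment over Trim21 mRNA (1.08 ± 0.27, adjusted p = 0.031).

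Snord123, inside Snhg18, completed the ordered set at lower level: 6.71 and 6.48 in the non-manipulated pools, 6.78 and 7.27 in the Trim21 mRNA pools, 9.98 and 9.69 in the full-treatment pools, and 5.50 and 5.63 in the antibody-alone pools. The non-manipulated and Trim21 mRNA pools were almost level, and the gaps to the other 2 groups were larger. It rose by 2.81 ± 0.22 in the full treatment over Trim21 mRNA (adjusted p = 0.00021) and fell by 1.03 ± 0.22 with antibody alone (adjusted p = 0.031).

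The effect of the antibody in embryos that all carried Trim21 mRNA was read from the full treatment and the Trim21 mRNA group. Of the 44 members, 16 were higher and 3 lower at an adjusted p under 0.05, the threshold for a call throughout. Among all 30700 genes 23.2% were called, 8.72% higher and 14.5% lower. Of the 19 members of mean level 8 or more, 10 were higher and 1 lower, with a median difference of 1.85. All 3 members that reached this level only through the full-treatment pools are among the 10, and the other 16 had 7 higher and 1 lower with a median of 0.38, so the median of the 19 turned on which members were counted as abundant. The median over the 6738 genes of mean level 8 or more was -0.73 and 2992 of them (44.4%) were called lower, and over the 6981 genes whose mean outside the full-treatment pools was 8 or more the median was -0.85. Over all 44 members the median was 0.40, against 0.21 over all genes. Under the 3 other scalings between arrays the median of the 44 was 0.06 to 0.22 and that of the 16 was 0.05 to 1.20, in both cases lowest with median centring. The count of called members depended on single pools, and each fit without a pool leaves 1 pool in a group. Fewer members were called without any 1 of the full-treatment, Trim21 mRNA or non-manipulated pools. Without either antibody-alone pool the differences were the same (25 of 44 positive, median 0.40), but more members were called, and falls gained more than rises. More of the genes of mean level 8 or more were then called as well, in both directions.

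**Figure D2:**
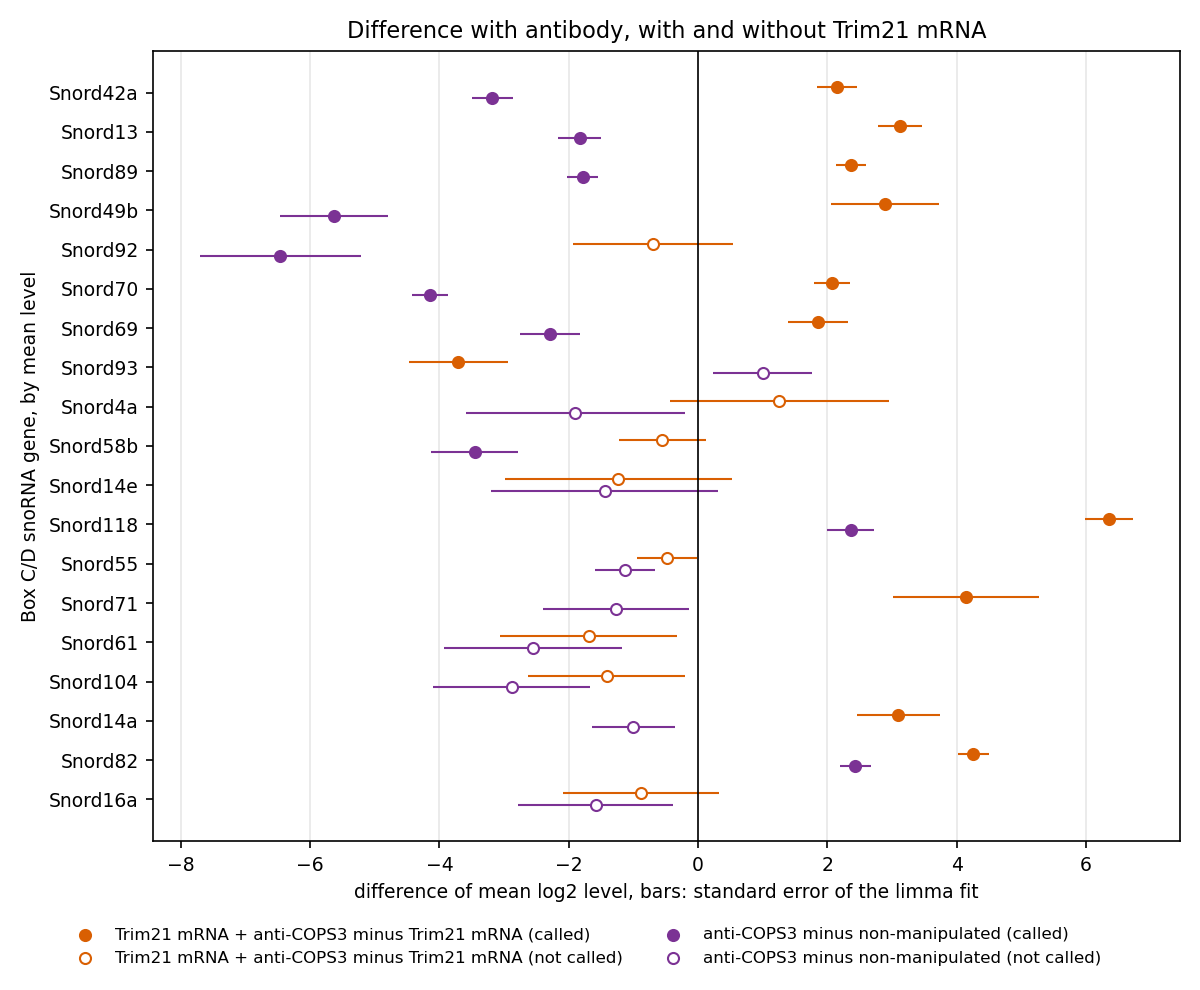
Difference of mean log2 level (x axis) for each of the 19 snoRNAs of mean level 8 or more (y axis), for the full treatment minus Trim21 mRNA and for antibody alone minus non-manipulated, with the standard error of the limma fit as bars and filled markers for called differences. Snord118 and Snord82 lie right of 0 in both comparisons, at 6.36 and 4.26 for the full treatment, 2.36 and 2.44 for antibody alone. The 6 ordered snoRNAs of this level lie on opposite sides, which the order they were picked by fixes.

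The largest of these rises was that of Snord118, the U8 RNA needed for maturation of large-subunit ribosomal RNA, which has its own promoter. Its levels were 7.04 and 6.67 in the non-manipulated pools, 8.02 and 8.82 in the Trim21 mRNA pools, 14.36 and 15.20 in the full-treatment pools, and 9.39 and 9.04 in the antibody-alone pools. Unlike the ordered set, it was higher with antibody alone than in either group without antibody, and no groups overlapped. The full treatment was 82.1-fold above Trim21 mRNA, a log2 difference of 6.36 ± 0.37 (adjusted p = 9e-05), and antibody alone exceeded non-manipulated embryos by 2.36 ± 0.37 (adjusted p = 0.013). A second cluster annotated to Snord118 stayed at 3.31 to 4.92 in all pools, so the 2 clusters of this gene disagree, and the one of higher mean is used.

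Snord82, a small-subunit guide inside the nucleolin gene Ncl, behaved alike. It stood at 6.67 and 6.55 in the non-manipulated pools, 6.02 and 6.66 in the Trim21 mRNA pools, 10.72 and 10.48 in the full-treatment pools, and 8.96 and 9.13 in the antibody-alone pools. The groups without antibody overlapped each other, and both antibody groups lay above them. The differences were 4.26 ± 0.24 with Trim21 mRNA (adjusted p = 8e-05) and 2.44 ± 0.24 without (adjusted p = 0.0035).

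Snord90 and Snord87 rose in the full treatment and were not called with antibody alone. Snord90, inside Rc3h2, was at 5.65 to 6.02 in the 4 pools without antibody, 10.49 and 9.58 in the full-treatment pools, and 4.89 and 5.86 in the antibody-alone pools. Full treatment exceeded Trim21 mRNA by 4.06 ± 0.39 (adjusted p = 0.00055). Snord87, a large-subunit guide inside Snhg6, was at 7.90 and 7.67 in the non-manipulated pools, 7.30 and 6.47 in the Trim21 mRNA pools, 10.06 and 10.93 in the full-treatment pools, and 6.65 and 6.57 in the antibody-alone pools, a rise of 3.61 ± 0.36 (adjusted p = 0.0006). For both, the full-treatment pools were the highest and lay clear of the other 6.

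Snord14a (U14), inside Rps13 and active in cleavage of the small-subunit precursor, had 7.44 and 7.56 in the non-manipulated pools, 8.33 and 7.86 in the Trim21 mRNA pools, 10.93 and 11.45 in the full-treatment pools, and 5.40 and 7.60 in the antibody-alone pools. The full treatment stood above all other pools, by 3.10 ± 0.64 over Trim21 mRNA (adjusted p = 0.014). Its relative Snord14e, inside the chaperone gene Hspa8, was not called (-1.23 ± 1.76, adjusted p = 0.62). It had 9.96 and 9.70, 10.98 and 11.48, 10.42 and 9.58, and 5.18 and 11.59 in the same order. The Trim21 mRNA pools lay above the non-manipulated and full-treatment pools, and the antibody-alone pools lay at both ends of its range. Of the 4 measured members that act in precursor cleavage or modification other than methylation, 3 (Snord13, Snord14a and Snord118) were called higher and 0 lower, with a median difference of 3.11.

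Snord71, a guide for the short ribosomal RNA of the large subunit, was at 7.51 to 8.36 without antibody, 11.36 and 12.94 in the full-treatment pools, and 4.45 and 8.22 in the antibody-alone pools. Its rise of 4.14 ± 1.13 (adjusted p = 0.04) did not pass with median centring (adjusted p = 0.085). The other 3 members called higher, Snord11, Snord83b and Snord49a, were named after their values were seen, and rose by 2.71 ± 0.67, 2.62 ± 0.46 and 1.08 ± 0.27. Snord11 is a small-subunit guide in the same host as Snord70.

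Exceptions went the other way. Snord93, a small-subunit guide inside 2700038G22Rik, had 10.78 and 10.61 in the non-manipulated pools, 10.63 and 11.42 in the Trim21 mRNA pools, 7.01 and 7.63 in the full-treatment pools, and 13.00 and 10.39 in the antibody-alone pools. It was lowest in the full treatment, without overlap, while its antibody-alone pools lay on either side of the non-manipulated ones (adjusted p = 0.4), and it fell by 3.71 ± 0.77 against Trim21 mRNA (adjusted p = 0.015). Snord8 and Snord23 fell less, by 1.00 ± 0.27 (adjusted p = 0.036) and 0.91 ± 0.20 (adjusted p = 0.019), and the first did not pass under every scaling. Each of these falls missed the threshold when either full-treatment pool was left out, and so did the rises of Snord49b, Snord71 and Snord14a. The rise of Snord69 missed it without the second of these pools. Over the fits without 1 array the difference was -4.10 to -3.31 for Snord93, 2.63 to 3.15 for Snord49b and 3.35 to 4.93 for Snord71. It was 2.83 to 3.35 for Snord14a and 1.20 to 2.50 for Snord69.

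Several abundant members were not called. Snord61, a small-subunit guide inside Rbmx, stood at 10.11 and 10.04 in the non-manipulated pools, 9.16 and 8.92 in the Trim21 mRNA pools, 7.33 and 7.37 in the full-treatment pools, and 5.00 and 10.04 in the antibody-alone pools. Snord104, a large-subunit guide, stood at 9.37 and 9.33, 9.33 and 9.84, 8.25 and 8.10, and 4.26 and 8.68 in the same order. In both, the full-treatment pools agreed closely and lay below the Trim21 mRNA pools, while the wide gap between the antibody-alone pools entered the shared error, and adjusted p was 0.38 for Snord61 and 0.41 for Snord104.

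Snord4a, which shares the host Rpl23a with Snord42a, was not called either. Its levels were 9.80 and 9.99 in the non-manipulated pools, 9.94 and 11.17 in the Trim21 mRNA pools, 11.65 and 11.97 in the full-treatment pools, and 4.94 and 11.05 in the antibody-alone pools. Snord16a, a small-subunit guide inside Rpl4, was likewise not called. It lay at 7.42 to 9.25 in the other 7 pools and at 4.93 in the first antibody-alone pool.

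The effect of the antibody without added Trim21 mRNA was read from the antibody-alone and the non-manipulated pools. Here 2 members were higher and 10 lower of 44, against 10.0% of all genes called, 2.76% higher and 7.29% lower. Among the 19 members of mean level 8 or more the counts were 2 and 8, with a median difference of -1.83, against -0.35 over all genes of that level. The count rested on the arrays in the fit. It was larger without the second antibody-alone pool, as it was among abundant genes at large, and far smaller without either non-manipulated pool. It was 0 when only the 4 arrays of the 2 groups were fitted, where no gene at all was called by limma. In the fit of all arrays 21 of the 44 members (47.7%) had an unadjusted p under 0.05, against 27.7% of all genes. The median of the 19 was -0.35 without the first antibody-alone pool and -3.15 without the second.

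Beside the ordered snoRNAs, Snord92, Snord58b and Snord98 were low with antibody alone. Snord92, a large-subunit guide inside Wdr43, stood at 12.69 and 12.42 in the non-manipulated pools, 13.59 and 14.53 in the Trim21 mRNA pools, 12.57 and 14.16 in the full-treatment pools, and 4.01 and 8.18 in the antibody-alone pools. The non-manipulated pools lay below the Trim21 mRNA pools, the full-treatment pools overlapped both, and both antibody-alone pools lay far below all 6 others. The difference from non-manipulated embryos was -6.46 ± 1.24 (adjusted p = 0.024), and -4.38 ± 0.66 without the first antibody-alone pool (adjusted p = 0.0081), whose value of 4.01 lay below that array's median of 5.24. Snord58b, a large-subunit guide inside Rpl17, had 10.37 and 10.18, 11.45 and 12.03, 10.62 and 11.76, and 5.80 and 7.84 in the same order, and fell by 3.46 ± 0.67 with antibody alone (adjusted p = 0.024; -2.44 ± 0.47 without the first antibody-alone pool, adjusted p = 0.017). Its 2 transcript clusters gave nearly the same values. Snord98, a small-subunit guide inside Ccar1, had 8.47 and 8.22, 8.62 and 8.73, 7.33 and 7.24, and 6.23 and 4.74, and fell by 2.86 ± 0.43 (adjusted p = 0.011). Its value of 4.74 lay below the median of the second antibody-alone array, 4.86, so the size of this fall is not resolved.

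The 2 antibody-alone pools differed widely from each other at the snoRNAs. Of the 19 members of mean level 8 or more, 12 (63.2%) differed by more than 2-fold between these pools, against 25.6% of all genes of that level, and the first pool was the lower in 14 of 19. In that pool 8 of the 19 lay below the array's median over all transcript clusters, 5.24, and the files give no detection call for them, and in every other pool 0 of the 19 lay below the median of their array. In the other groups, members of the 19 that differed by more than 2-fold between the 2 pools numbered 0 (non-manipulated), 1 (Trim21 mRNA) and 4 (full treatment). The shares of all genes of that level were 0.0890%, 0.163% and 4.13%. The median level of the 19 was 9.96 and 9.97 in the non-manipulated pools, 10.63 and 11.42 in the Trim21 mRNA pools, 11.36 and 11.97 in the full-treatment pools, and 5.80 and 9.04 in the antibody-alone pools. Members of mean level under 8 had medians of 5.19 to 5.73 in all pools.

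**Figure D3:**
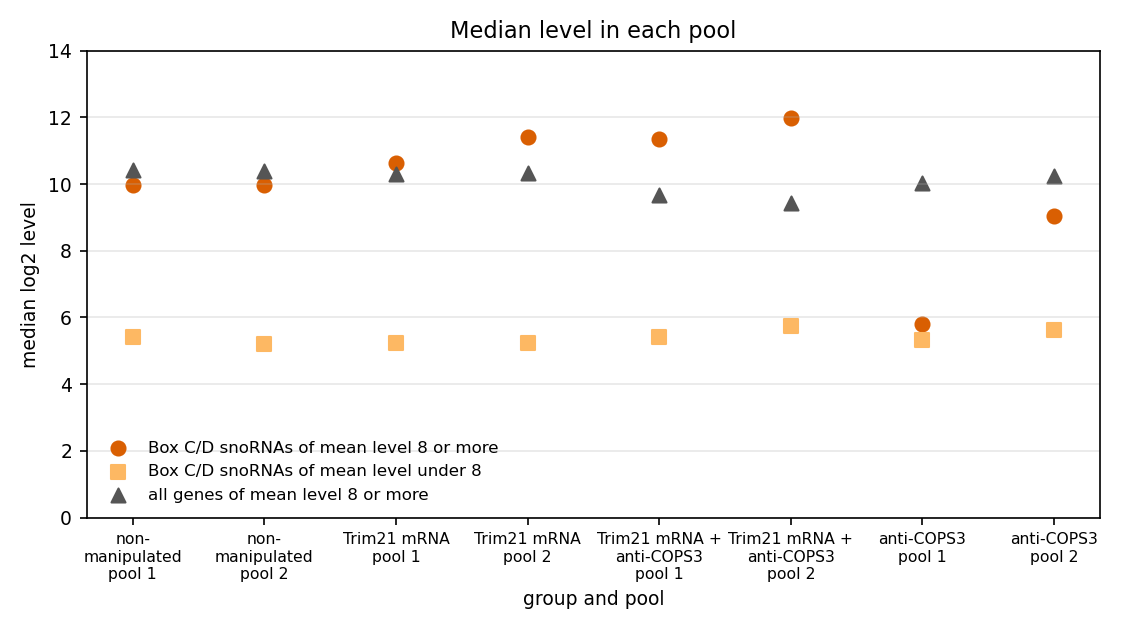
Median log2 level (y axis) in each of the 8 pools (x axis) of the 19 snoRNAs of mean level 8 or more, the 25 of lower mean, and all 6738 genes of mean level 8 or more. The 19 snoRNAs, of which 3 are in this set only through the full-treatment pools, run from 9.96 to 11.97 between the first non-manipulated and second full-treatment pool and drop to 5.80 and 9.04 in the antibody-alone pools, while the median of all genes of that level is lowest in the full treatment, at 9.66 and 9.42.

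Injection of the mRNA by itself was compared with no manipulation. No member was called by limma, and 0.00326% of all genes were. At an unadjusted p under 0.05 there were 8 members, 6 higher and 2 lower, which is 18.2% of the 44 against 6.28% of all genes. In the 19 of mean level 8 or more, the pools of 11 were higher without overlap and those of 1 lower, with a median difference of 1.29, while among all genes 33.8% were higher and 26.9% lower without overlap. Fitting only these 2 groups called 12 members, 10 higher and 2 lower, with 8.21% of all genes called. The differences of the ordered snoRNAs were 1.84 ± 0.31 for Snord42a, 2.47 ± 0.34 for Snord13, 1.30 ± 0.23 for Snord89, 2.14 ± 0.28 for Snord70 and 2.44 ± 0.46 for Snord69, with adjusted p of 0.44 to 0.46. Those of Snord49b and Snord118 were 1.95 ± 0.84 and 1.56 ± 0.37 (adjusted p = 0.81 and 0.55). Snord123, also of the ordered set, differed by only 0.43.

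The full treatment against antibody alone compared the same antibody with and without Trim21 mRNA. Of 44 members 18 were higher and 1 (Snord93) lower, against 14.9% of all genes called and 4.37% called higher, and of the 19 abundant members 12 were higher and 1 lower with a median difference of 4.69. Without the first antibody-alone pool the median of the 19 was 3.59 with 13 positive, and without the second it was 5.39 with 18 positive. Over all 44 members the median was 1.15 with 33 positive, and 0.69 with 27 positive without the first antibody-alone pool. Snord93 was then not the only marked fall: Snord61, Snord14e and Snord16a differed by -2.69, -1.59 and -1.37. The 16 members that reached the level outside the full treatment had a median of 4.91 with all arrays. The median over all genes of mean level 8 or more was -0.55. Snord49b differed by 10.47 ± 0.84 (adjusted p = 0.00057; 9.00 ± 0.31 without the first antibody-alone pool), Snord70 by 8.36 ± 0.28 (adjusted p = 6.9e-05), Snord13 by 7.42 ± 0.34 and Snord42a by 7.17 ± 0.31 (adjusted p = 0.00013 for both). Snord92, which was not called for the full treatment against Trim21 mRNA, was 7.27 ± 1.24 above its antibody-alone level (adjusted p = 0.0095), and 5.18 ± 0.66 above it without that pool (adjusted p = 0.0022). Without the second full-treatment pool 12 members were called in place of 19, and all 12 were higher.

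Full treatment against non-manipulated embryos called 17 members higher and 3 lower, against 31.7% of all genes called and 15.1% called higher. The largest difference was that of Snord118, 7.92 ± 0.37 (adjusted p = 5.8e-05), followed by Snord13 at 5.59 ± 0.34 (adjusted p = 9.2e-05) and Snord49b at 4.84 ± 0.84 (adjusted p = 0.006). Snord72, a large-subunit guide inside Rpl37, fell in this comparison, from 9.06 and 8.95 in non-manipulated embryos to 5.43 and 6.04 (-3.27 ± 0.88, adjusted p = 0.031), with Trim21 mRNA between at 7.70 and 7.29 and antibody alone at 5.24 and 8.35. It missed the threshold under at least 1 other scaling. Leaving out either non-manipulated pool gave fewer called members. Without either antibody-alone pool the differences were the same (26 of 44 positive, median 0.72), but more members were called, and falls gained more than rises.

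The 2 antibody effects, with and without Trim21 mRNA, were compared by a test of their difference. The 4 groups in it differ in day and none had a control antibody, so it cannot show that the antibody acted differently. This difference is described here. It was positive and called in 11 of 44 members and negative and called in 0, while 4.08% of all genes were called, 0.625% positive and 3.46% negative. In the 19 abundant members 8 were called and 18 had a positive value, with a median of 4.00, and in the 16 that reached the level outside the full treatment 7 were called and 15 were positive, with a median of 3.58. These counts rested in part on the first antibody-alone pool. Without it 13 of the 19 were positive, with a median of 3.00, and 10 of the 16 were positive, with a median of 2.78. The median over all genes of mean level 8 or more was -0.40 with all arrays and -0.54 without that pool. Of these 6738 genes 2310 were positive with all arrays and 1965 without that pool. With all arrays 112 of them were called positive and 951 negative. The values were 8.52 ± 1.18 for Snord49b (adjusted p = 0.014; 7.05 ± 0.40 without that pool), 6.21 ± 0.40 for Snord70 (adjusted p = 0.0025), 5.33 ± 0.44 for Snord42a (adjusted p = 0.0036) and 4.96 ± 0.47 for Snord13 (adjusted p = 0.0052). For Snord118 the value was 4.00 ± 0.52 (adjusted p = 0.011) and for Snord82 1.82 ± 0.33 (adjusted p = 0.034), which both rose in either setting, by more where Trim21 mRNA was present. Snord93 had the lowest value, -4.71 ± 1.09 (adjusted p = 0.071).

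The counts of this test again varied with the pools. Fewer members were called without any 1 of the non-manipulated or Trim21 mRNA pools. More were called without either antibody-alone pool, as among abundant genes at large. Of the 44 values 29 were positive without the first antibody-alone pool, against 37 with all arrays. Calls for Snord42a, Snord13, Snord89, Snord70 and Snord123 were kept under every alternative tried, and that for Snord82 was lost under a scaling.

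**Figure D4:**
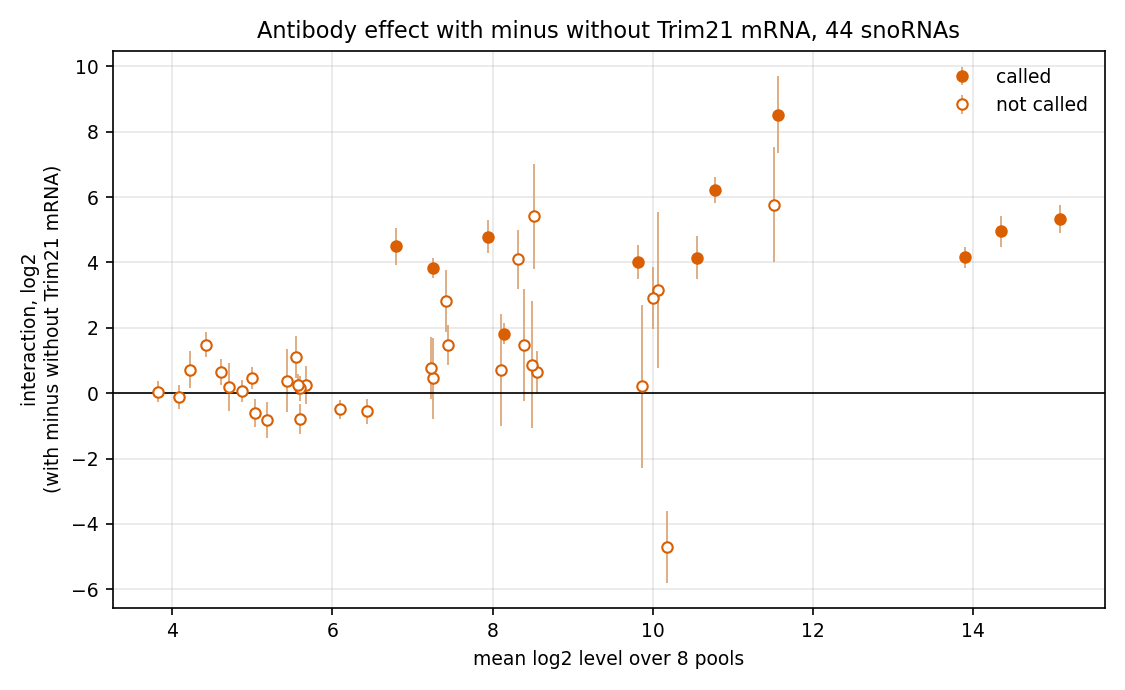
Difference of the 2 antibody effects (y axis, log2, with minus without Trim21 mRNA, bars: standard error of the limma fit) against mean log2 level over the 8 pools (x axis) for the 44 snoRNAs, with filled markers for the 11 called. Called values run from 1.82 (Snord82) to 8.52 (Snord49b), and no member with a mean below 6 is called.

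The H/ACA snoRNAs and Cajal body RNAs, which guide pseudouridylation or modify spliceosomal RNAs with other proteins, were the nearest class for comparison. Of 24 measured, 10 were higher and 1 lower in the full treatment against Trim21 mRNA, with a median of 1.38, and 0 were higher and 5 lower with antibody alone, with a median of -0.19. In the full treatment against antibody alone 13 of the 24 were higher and 0 lower, with a median of 2.39. The box C/D members had 18 of 44 higher and 1 lower there, with a median of 1.15. The difference of the antibody effects was positive in 22 of 24 and called in 4, with a median of 2.03. Among the box C/D members it was positive in 37 of 44 and called in 11, with a median of 0.82. The pattern was thus shared by both classes. Whether the 2 classes differ from each other was not tested.

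Many of the genes that contain the snoRNAs fell in the full treatment. By RefSeq positions 41 of the 44 members lie inside a listed gene and 3 (Snord13, Snord89 and Snord118) inside none, and 25 pairs of 21 members with 24 containing genes were measured singly. A containing gene is named from positions alone, whichever its strand. In the full treatment against Trim21 mRNA, 16 of the 24 containing genes (66.7%) were called lower and 1 higher, against 14.5% of all genes called lower. Of the 18 containing genes of mean level 8 or more 15 were called lower (83.3%), against 44.4% of all genes of that level, so falls were common among abundant genes in general. The median over pairs was -1.89, while the members of the same pairs had a median of -0.41. In 9 pairs the snoRNA had the higher and the containing gene the lower mean in the full treatment, in 14 both were lower and in 2 both higher.

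Nop58, which encodes a core protein of the same particles and contains Snord70 and Snord11, had 14.80 and 14.94 in the non-manipulated pools, 14.54 and 14.24 in the Trim21 mRNA pools, 10.90 and 10.94 in the full-treatment pools, and 13.90 and 13.69 in the antibody-alone pools. Its fall of 3.47 ± 0.17 (adjusted p = 6.6e-05) stood beside rises of Snord70 and Snord11. Ncl, host of Snord82, had 13.45 and 13.55, 13.54 and 13.38, 10.44 and 10.04, and 12.75 and 12.24, and fell by 3.22 ± 0.23 (adjusted p = 0.00016). Snord82 thus was higher, and Ncl lower, in both groups with antibody. Wdr43, host of Snord92, fell by 2.90 ± 0.26 (adjusted p = 0.00037), and Rc3h2, host of Snord90, fell by 2.46 ± 0.27 (adjusted p = 0.00094).

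Snhg18, the host of Snord123, was the containing gene that rose, from 7.28 and 7.06 with Trim21 mRNA to 8.52 and 8.39 (1.29 ± 0.20, adjusted p = 0.004). With antibody alone it also rose, from 7.15 and 6.69 to 7.70 and 7.76 (0.81 ± 0.20, adjusted p = 0.048), while Snord123 fell. In that comparison 8 of the 24 containing genes (33.3%) were called lower and 1 higher (3 lower and 1 higher after quantile normalization), against 7.29% of all genes called lower. Of the 18 containing genes of mean level 8 or more 7 were called lower (38.9%), against 21.4% of all genes of that level. The median over the members of the pairs was -0.82. Nop58 fell by 1.07 ± 0.17 there (adjusted p = 0.014), beside a fall of Snord70 of 4.14.

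**Figure D5:**
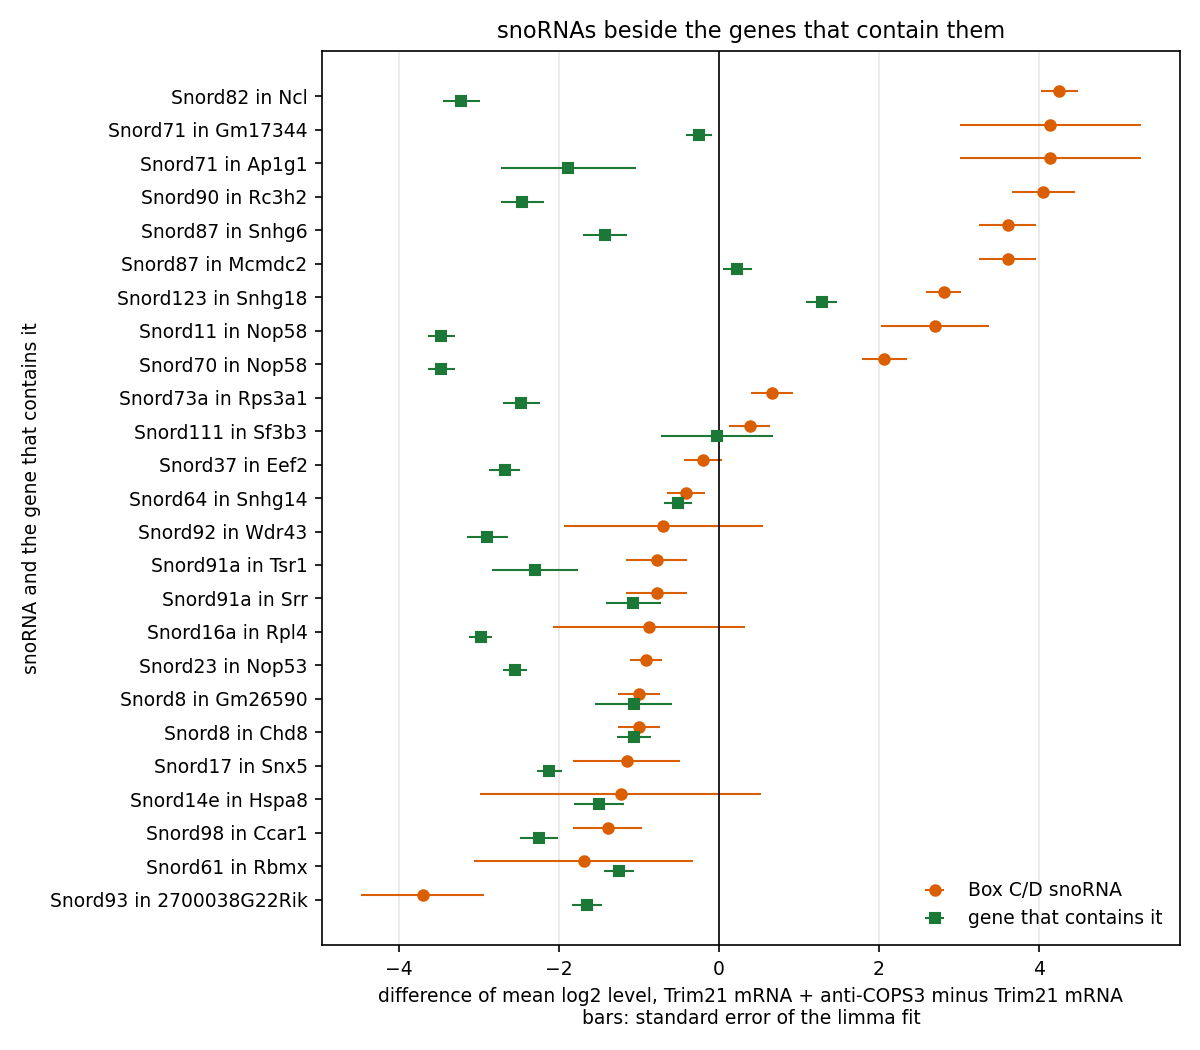
Difference of mean log2 level in the full treatment minus Trim21 mRNA (x axis, bars: standard error of the limma fit) for 25 pairs of a box C/D snoRNA and a measured gene that contains it (y axis). Snord82 lies at 4.26 beside Ncl at -3.22, Snord90 at 4.06 beside Rc3h2 at -2.46, and Snord123 at 2.81 beside Snhg18 at 1.29.

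Because Nop58, Ncl and Wdr43, which contain 4 of the members above, fell together, their start regions are shown from RefSeq (GRCm38.p6), each 5′ to 3′ on the gene's strand with 90 bases before the start of the transcript and 30 from it. Nop58 lies at chr1:59684916-59685035 on the plus strand, Ncl at chr1:86359426-86359545 on the minus strand and Wdr43 at chr17:71616125-71616244 on the plus strand. Capitals mark the motif CACGTG, the E-box bound by MYC and related factors, which reads the same on both strands.
Nop58: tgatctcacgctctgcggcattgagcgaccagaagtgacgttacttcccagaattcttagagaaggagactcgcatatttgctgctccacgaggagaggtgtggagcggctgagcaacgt
Ncl: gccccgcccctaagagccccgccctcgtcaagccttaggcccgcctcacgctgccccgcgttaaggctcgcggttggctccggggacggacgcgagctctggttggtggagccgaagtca
Wdr43: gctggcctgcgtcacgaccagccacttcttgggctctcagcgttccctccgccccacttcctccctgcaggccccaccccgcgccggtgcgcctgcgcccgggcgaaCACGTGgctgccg
Of these only the Wdr43 stretch holds the motif, beginning at base 18 of the transcript. In windows of 300 bases around the start, 250 before and 50 after, 8 of 32 windows of containing genes (25%) held it, against 7.15% of all 32851 windows. Of the 42 containing genes, 31 had a window. A match is a description of letters and not a binding site.

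The mRNAs for the proteins of the particles fell in the full treatment, whereas many of the snoRNAs did not. Of the 4 core proteins, Nop56 and Snu13 were not measured singly, and both of the others were called lower than with Trim21 mRNA, with a median difference of -3.32. Fbl, which encodes the methylase fibrillarin, had 15.23 and 15.28 in the non-manipulated pools, 14.73 and 14.53 in the Trim21 mRNA pools, 11.64 and 11.29 in the full-treatment pools, and 13.68 and 13.65 in the antibody-alone pools. It fell by 3.17 ± 0.17 (adjusted p = 7.9e-05) with Trim21 mRNA present and by 1.59 ± 0.17 (adjusted p = 0.0051) without, so antibody alone gave the same direction at smaller size (difference of the effects -1.57 ± 0.25, adjusted p = 0.02).

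Assembly factors, which build the particle before it reaches the nucleolus, were called lower in 8 of 8 measured, with a median of -3.33. Znhit6 fell from 12.37 and 12.05 with Trim21 mRNA to 7.69 and 7.49 (-4.62 ± 0.22, adjusted p = 6.5e-05), and Nolc1, a nucleolar chaperone of snoRNA particles, from 14.76 and 14.69 to 10.97 and 10.68 (-3.90 ± 0.20, adjusted p = 6.9e-05). The AAA proteins Ruvbl1 and Ruvbl2 differed by -2.94 ± 0.27 and -1.08 ± 0.20. With antibody alone 5 of the 8 were called lower, with a median of -1.11, and 1 of the 8 after quantile normalization.

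Among proteins of the U3 particle and processome 8 of 8 were called lower in the full treatment against Trim21 mRNA (median -2.75), and of the factors for snoRNA ends and caps 9 of 10 (median -2.08). Exosc10, the nuclear exosome nuclease that trims snoRNA ends, fell by 2.12 ± 0.14 (adjusted p = 0.00013), and Tgs1, which modifies the cap of independently transcribed snoRNAs, by 2.04 ± 0.19 (adjusted p = 0.00041). With antibody alone the counts were 4 of 8 and 2 of 10, and 1 of 8 and 1 of 10 after quantile normalization. The medians of these lists in the full treatment against Trim21 mRNA stayed below 0 under each of the 3 other scalings, from -1.41 for the factors for ends and caps to -3.67 for the assembly factors. Set against these lists, called falls also reached 14.5% of all genes and 2992 of the 6738 genes of mean level 8 or more, so many other abundant transcripts were lower as well.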

How the data were processed

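RNA of 8 pools of 2-cell embryos was amplified and labelled with a GeneChip WT Pico kit, per the labels' protocols. The deposited values are log2 levels per transcript cluster, made by the authors with Affymetrix Expression Console, per the submitters' processing notes. The version, summarisation, normalization and genome build were not given in the sources used here. One cell of the first non-manipulated array held a number above 100, and its transcript cluster was dropped (65955 of 65956 used). Annotation of the array gave a single gene for 31257 clusters, several for 1492 and none for 33206, and 1775 symbols were updated through RefSeq. Of 442 genes on several clusters the one of highest mean was kept, which left 30700 genes.

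All 8 arrays entered 1 linear model with 4 group means (limma 3.58.1, R 4.3.3, functions lmFit and eBayes, two-sided, 4 residual and 6.83 total degrees of freedom), with Benjamini-Hochberg adjustment over all genes within each comparison and calls at an adjusted p under 0.05. The script was tested on simulated data. Depth does not apply to arrays, and their number limits the precision. With 2 pools a group, an exact test cannot reach the threshold.

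Named members were those of mean level 8 or more, per comparison the 6 of smallest p called in each direction, those acting in precursor cleavage, and the 2 members on either side of level 8. Members, lists and tests were chosen with earlier results of these data known. Containing genes come from RefSeq positions (GRCm38.p6), and 1 containing gene is not reported here.

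Alternatives were quantile normalization, median centring, cyclic loess, only genes of mean level 5 or more, the level of abundant members taken outside the full-treatment pools (added after seeing the data), averaging the clusters of a gene, a robust trended prior, only the groups compared, a replicate block, and leaving out each array. Deviations of arrays with the same replicate number correlated at -0.191 to 0.143 between groups, so the numbers were not taken to pair the pools.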

Additional observations from a re-analysis of the deposited data

Results flagged for a closer look

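For each of the following 11 snoRNAs the difference of the 2 antibody effects was called (the antibody effect with Trim21 mRNA minus the antibody effect without, limma, log2 ± standard error, 2 pools per group, adjusted over all genes). Day and group cannot be told apart in it. The value was 8.52 ± 1.18 for Snord49b (adjusted p = 0.014), where the antibody difference was 2.89 with Trim21 mRNA and -5.63 without, the latter resting in part on a value below its array's median. It was 6.21 ± 0.40 for Snord70 (adjusted p = 0.0025), 5.33 ± 0.44 for Snord42a (adjusted p = 0.0036) and 4.96 ± 0.47 for Snord13 (adjusted p = 0.0052).

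For Snord87, higher in the full treatment and not called with antibody alone, it was 4.79 ± 0.51 (adjusted p = 0.0065), and for Snord90, which showed the same, 4.50 ± 0.56 (adjusted p = 0.0097). Snord89 had 4.16 ± 0.33 (adjusted p = 0.0036), Snord69 had 4.14 ± 0.66 (adjusted p = 0.021) and Snord123 had 3.84 ± 0.31 (adjusted p = 0.0036). Their antibody effects had opposite signs, which the order they were picked by fixes. Snord118 had 4.00 ± 0.52 (adjusted p = 0.011) and Snord82 had 1.82 ± 0.33 (adjusted p = 0.034), with rises in both settings. Groups of 2 pools are too small for a check of single outlying pools.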

How the results depend on the processing

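No called difference of a named snoRNA changed sign under any alternative tried. Of the named snoRNAs called in the full treatment against Trim21 mRNA, 9 of 16 kept the call throughout, 12 of 17 against antibody alone, 12 of 16 against non-manipulated embryos and 5 of 11 for the difference of the antibody effects. None of the 12 called for antibody alone against non-manipulated embryos did, since fitting only those 2 groups left 0 members called, and the same choice gave 12 for Trim21 mRNA against non-manipulated embryos. Leaving out 1 array at a time, called members ranged from 9 to 31 for the full treatment against Trim21 mRNA, 1 to 31 for antibody alone, 0 to 0 for Trim21 mRNA, 12 to 28 for the full treatment against antibody alone, 13 to 32 against non-manipulated embryos, 5 to 25 for the difference of the antibody effects and 14 to 35 for any difference among the 4 groups (21 with all arrays). The replicate number as a block gave 18, 11, 0, 19, 20, 10 and 20 in that order, and changed none of these counts by over 1.5 times. With each array centred on its median the full treatment against Trim21 mRNA had 13 members higher and 4 lower. The median over all 44 members of the full treatment against non-manipulated embryos was 0.26 with that centring in place of 0.72, and those of the full treatment against antibody alone and of the difference of effects were 1.66 and 1.47 over members of mean level 5 or more. Taking the level over the 6 pools outside the full treatment, a choice made after seeing the data, left 16 of the 19 abundant members and moved their median for the full treatment against Trim21 mRNA from 1.85 to 0.38, while those for antibody alone, the full treatment against antibody alone and the difference of the effects were -2.09, 4.91 and 3.58. Signals near the lower end of the scale, where 18 members never exceeded 8, leave falls of those members hard to see.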
